A study of Mus musculus with 16 samples.

Results

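Small nucleolar RNAs (snoRNAs) were taken as every gene whose symbol starts with Snora or Snord followed by a digit. There were 110 of them among 24394 gene names: 36 H/ACA snoRNAs (Snora) and 74 C/D snoRNAs (Snord). A snoRNA entered a comparison where 2 or more libraries of that table held it at a value of 1 or above. Of the 110, 74 (27 H/ACA and 47 C/D) did so in the table of arsenite-treated cells, 85 (31 and 54) in the Trim33 table and 3 (2 and 1) in the Pml table. The filter left members close to its edge on either side: in the arsenite table Snora47 passed with 1.02 RPKM in its second-highest library, and Snord57 did not with 0.996.

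SnoRNAs are short nuclear RNAs that guide the chemical modification of other RNAs, above all ribosomal RNA. C/D snoRNAs carry a C box near the 5′ end and a D box near the 3′ end and guide ribose methylation by fibrillarin, while H/ACA snoRNAs fold into hairpins followed by an H box and a terminal ACA and guide pseudouridylation by dyskerin. Most mouse snoRNAs lie inside an intron of another gene, the host, and are cut from the spliced intron, so the host's promoter sets their transcription. Many hosts encode ribosomal proteins or translation factors, and others, such as the Snhg genes, are non-coding RNAs.

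The RNA came from the mouse embryonic stem (ES) line E14Tg2a.IV, with a C57BL/6 strain label, kept feeder-free with LIF and serum; the name CCE also stands in the growth protocol. There were 16 libraries in 8 groups of 2, in 3 separately normalised tables, so values were compared only within a table. The first table compared Pml-knockout with wild-type cells, neither of them treated. The second held wild-type cells, untreated or exposed for 2 h to sodium arsenite at 200 µM, which causes oxidative stress and protein damage. The third crossed the genotype labels wild type and Trim33 knockout with a 2 h exposure to activin A at 50 ng/ml, a TGF-β family ligand that signals through SMAD2 and SMAD3, or to SB431542 at 10 µM, which blocks the kinases of the receptors for that ligand. Nothing states that the libraries of a group were separate cultures, or that a knockout line was or was not 1 clone; p-values therefore reflect the spread of these samples alone.

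Total RNA was made into libraries with a TruSeq RNA kit, a kit that as a rule selects polyadenylated RNA, and the cDNA covers fragments. Reads over a snoRNA gene can come from the mature snoRNA or from a longer transcript of its host, and these cannot be told apart in values per gene. Of the 109 snoRNAs matched to RefSeq, the C/D RNAs had a median length of 68 bases (28 to 221) and the H/ACA RNAs of 119.5 bases (56 to 198). A host gene on the same strand was annotated for 71 C/D and 34 H/ACA snoRNAs, and it was protein-coding for 53 and 27 of them. For Snord104, Snord118, Snora17 and Snora43 the annotation used gave no host gene, which does not show that they have none. In 11 C/D and 6 H/ACA cases the snoRNA overlapped an exon of a host transcript, leaving out transcripts annotated as retained introns.

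The sequences below hold the most abundant member of each class (Snord96a and Snora65) and the largest fall and rise with arsenite (Snord104 and Snora2b). A member whose host fell with it (Snora16a) is also shown. Snord42b is the snoRNA whose differences between Trim33 genotype labels were called with each agent under every alternative. Snord88a and Snord88c are a neighbouring pair that read higher with arsenite while their host fell. Snord88a entered that test through the arsenite libraries alone, and the call of Snord88c was lost under other scalings. All sequences were read from GENCODE transcripts of GRCm38 and are given 5′ to 3′ as DNA. Capitals in C/D RNAs mark exact matches to TGATGA (C box) within the first 30 bases and CTGA (D box) within the last 30, and in H/ACA RNAs matches to ANANNA (H box) in the middle 50% and ACA within the last 10 bases.
Snord96a: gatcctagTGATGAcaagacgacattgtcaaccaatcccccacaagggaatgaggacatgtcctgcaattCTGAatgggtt
Snord104: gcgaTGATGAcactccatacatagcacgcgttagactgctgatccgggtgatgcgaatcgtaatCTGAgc
Snord42b: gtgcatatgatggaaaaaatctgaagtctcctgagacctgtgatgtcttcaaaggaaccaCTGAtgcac
Snord88a: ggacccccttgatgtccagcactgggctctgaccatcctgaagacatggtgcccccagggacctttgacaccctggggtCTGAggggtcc
Snord88c: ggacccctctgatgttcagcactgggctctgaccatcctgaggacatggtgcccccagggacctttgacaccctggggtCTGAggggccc
Snora65: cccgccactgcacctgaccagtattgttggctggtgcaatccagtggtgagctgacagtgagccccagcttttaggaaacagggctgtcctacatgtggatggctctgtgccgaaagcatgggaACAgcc
Snora16a: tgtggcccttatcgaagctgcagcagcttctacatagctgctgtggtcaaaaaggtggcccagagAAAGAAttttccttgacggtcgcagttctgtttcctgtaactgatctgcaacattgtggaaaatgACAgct
Snora2b: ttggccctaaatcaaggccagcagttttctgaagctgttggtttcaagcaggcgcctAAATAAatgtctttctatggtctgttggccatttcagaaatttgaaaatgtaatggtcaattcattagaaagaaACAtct

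On GRCm38, Snord96a lies at chr11:48802032-48802112 on the plus strand, in Rack1 (Gnb2l1 in the tables), and all 81 of its bases fall in an exon of some host transcript. Snord104 lies at chr11:106500993-106501062, plus strand, with no host gene in the annotation used. Snord42b lies at chr11:78183056-78183124, minus strand, in an intron of the ribosomal protein gene Rpl23a. Snord88a (chr7:44250135-44250224) and Snord88c (chr7:44249852-44249941) lie on the plus strand in 2410002F23Rik, the former in an exon of a host transcript and the latter in an intron. Their 90 bases differ at 5 positions. Snora65 lies at chr2:32963291-32963420, plus strand, in an intron of Rpl12, Snora16a at chr4:132309465-132309600, plus strand, wholly in an exon of a transcript of the non-coding RNA Snhg12, and Snora2b at chr15:98526346-98526482, minus strand, in an intron of Kansl2, a subunit gene of a histone acetyltransferase complex.

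The letters followed the classes. TGATGA and CTGA were both present in 46 of 73 C/D sequences (63.0%) and in 0 of 36 H/ACA sequences, and CTGA alone in 72 (98.6%) and 5 (13.9%). The terminal ACA was present in 34 of 36 H/ACA (94.4%) and in 7 of 73 C/D sequences (9.59%), and ANANNA, a looser motif, in 34 (94.4%) and 40 (54.8%). For 5 H/ACA and 4 C/D members at least 50% of all 30-base words also occur in another annotated gene, so their reads could be shared: Snora65, for example, shares 67.3% of its words with Gm24613.

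Libraries of the arsenite table held 46700000 to 48400000 reads, as recovered from the spacing of low values, and those of the Trim33 table between 31100000 and 39400000. Depth was not recovered for the Pml libraries. The snoRNAs together held 2017 to 2815 reads per library in the former and 2592 to 5785 in the latter. At the median member length, 1 read was worth 0.252 to 0.261 RPKM and 0.310 to 0.392 RPKM, and the median member held 8 to 18 reads per library. The 6 ES cell markers were at 1 or more in every group. In the Trim33 table, Trim33 itself went against the genotype label of each SB431542 library. It read 20.1 and 23.5 RPKM in wild type with activin A, 2.53 and 2.79 in knockout with activin A, 2.94 and 2.44 in the SB431542 pair labelled wild type, and 18.3 and 24.6 in the libraries labelled knockout with SB431542. Directions between genotype labels with SB431542 rest on those labels, and these libraries are called by them throughout.

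C/D and H/ACA snoRNAs were measured at like levels per length, with a few members far above the rest. In the arsenite table the median of the members' mean levels was 4.79 RPKM for H/ACA and 5.18 RPKM for C/D, against 11.5 RPKM over all genes tested, and 4 H/ACA and 10 C/D members averaged at least 10 RPKM. In the Trim33 table the medians were 7.75 and 8.62 RPKM against 9.15, and 14 and 26 members averaged at least 10. The C/D order was led in both tables by Snord96a, with 73.1 RPKM in the arsenite table and 253 RPKM in the Trim33 table. In the arsenite table Snord104 (30.9), Snord52 (18.4), Snord64 (17.2) and Snord49a (16.6) followed, and the libraries of these last 3 overlapped. These means pool both conditions: with arsenite Snord104 (9.66 and 12.9) was below Snord52 (16.7 and 16.3). In the Trim33 table Snord42b (74.2), Snord52 (68.6), Snord104 (59.0) and Snord49a (46.2) followed, again with overlapping ranges.

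Snora65 led the H/ACA snoRNAs, with a mean of 50.0 RPKM in the arsenite table and 60.8 RPKM in the Trim33 table, and Snora61 was next with 18 and 32.9. Snora31 (11.2), Snora28 (10.9) and Snora81 (9.06) came after them in the arsenite table, and Snora7a (28.6), Snora3 (19.4) and Snora31 (17.9) in the Trim33 table. Nearly all members were below their host per length: only Snora78 and Snord93 of 69 members with a host exceeded it in the arsenite table, and only Snora78 of 79 in the Trim33 table. Across these members the level of the snoRNA and that of its host had a Spearman coefficient of 0.25 and 0.33, as a description, since members share hosts, libraries and depth.

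**Figure D1:**
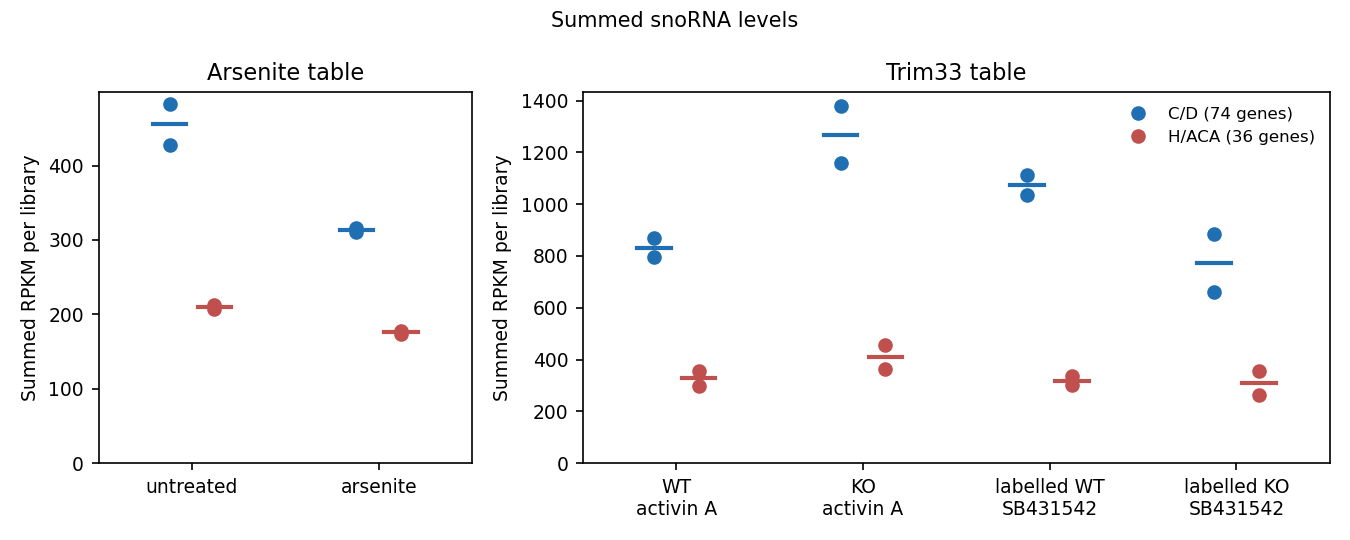
Summed RPKM of all C/D (blue, 74 genes) and H/ACA (red, 36 genes) snoRNAs in each library (points; bars are means of the 2 libraries) by group, on an axis from 0, for the arsenite table (left) and the Trim33 table (right). The C/D sums fall from 427 and 483 RPKM to 316 and 311 RPKM with arsenite, and in the Trim33 table they are highest in the knockout libraries with activin A.

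Replicate libraries differed more for snoRNAs than for other genes of the same level. In untreated cells the median absolute difference between the 2 libraries on the log2(RPKM + 1) scale was 0.43 over 74 snoRNAs (0.30 for H/ACA and 0.44 for C/D), against 0.09 for other genes of the same level. With arsenite it was 0.34 against 0.09. In the Trim33 table it was 0.53 against 0.16 in wild type with activin A, 0.42 against 0.16 in knockout with activin A, 0.48 against 0.19 in the SB431542 pair labelled wild type, and 0.63 against 0.25 in the SB431542 pair labelled knockout.

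These short genes hold few reads at a given RPKM, and counting noise was part of the spread. Recovered reads still differed by more than sampling noise. For members of 10 reads or more, chi-square divided by its degrees of freedom was 2.21 between replicates in untreated cells, 1.82 with arsenite and 3.85 to 7.66 in the Trim33 groups, where sampling alone gives about 1. Between classes it was 1.42 for H/ACA and 2.08 for C/D with arsenite, but 7.70 and 3.84 in wild type with activin A, so neither class was the more even throughout. Because limma's prior spread follows the level of a gene, it is small beside the replicate differences of snoRNAs. A fit added after seeing the data, in which that prior follows value times gene length, is therefore given beside each count.

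**Figure D2:**
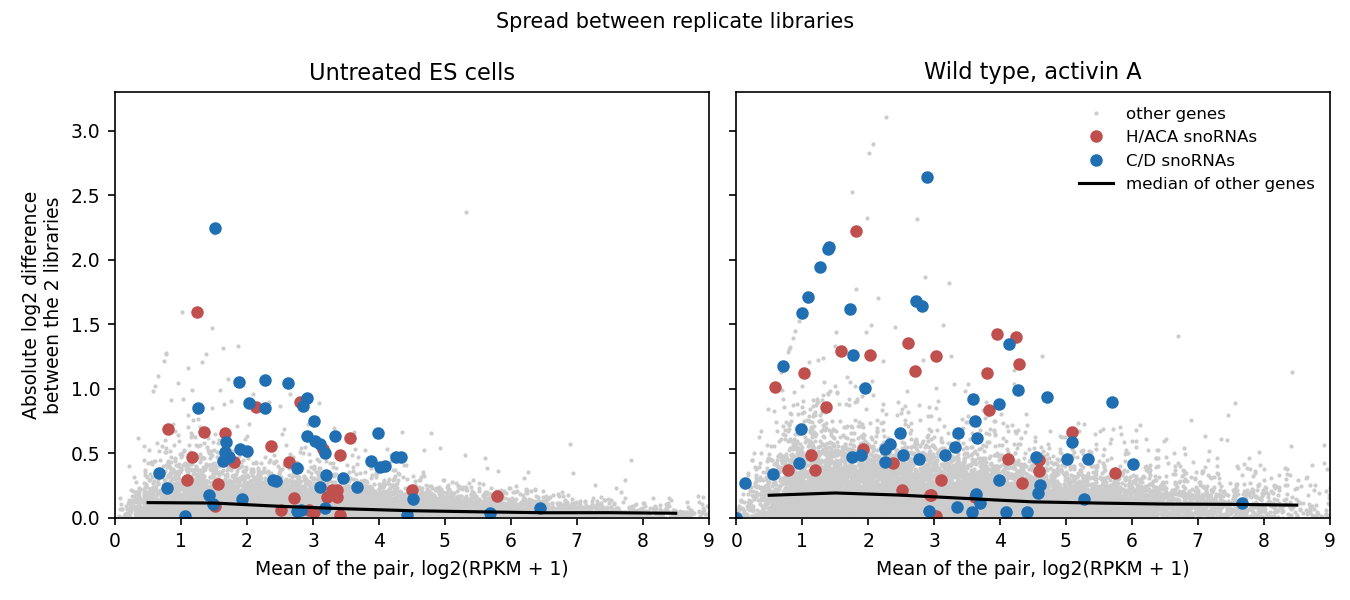
Absolute difference between the 2 libraries of a group on the log2(RPKM + 1) scale (y) against their mean on that scale (x) for untreated ES cells (left) and wild type with activin A (right); grey points are other genes, the black line is their median by level, and red and blue points are H/ACA and C/D snoRNAs. Most snoRNAs lie above the line, and Snord96a, the most abundant, lies close to it.

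After 2 h of arsenite more snoRNAs fell than rose. Of 74 tested, 32 were lower (43.2%) and 8 higher (10.8%; limma, Benjamini-Hochberg adjusted p under 0.05), whereas 27.0% of all genes tested were lower and 40.7% higher. Of the 74, 5 reached the filter through the libraries of 1 condition only and so had to differ; 3 of them were among the lower (Snord1c, Snord111 and Snord66) and 2 among the higher (Snord88a and Snord70), and the other 69 held 29 lower and 6 higher. Among H/ACA snoRNAs 11 of 27 fell and 3 rose, and among C/D snoRNAs 21 of 47 fell and 5 rose. The median log2 difference was -0.23 for H/ACA and -0.39 for C/D, against 0.08 over all genes. The medians of the classes differed by 0.16, as much as the SD of that class difference between replicates (0.16), and no test was made of it.

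Summed over members, C/D snoRNAs had 427 and 483 RPKM in the untreated libraries and 316 and 311 with arsenite, and H/ACA snoRNAs had 207 and 212 RPKM and then 174 and 177. Both classes were lower in both treated libraries, with no overlap. In recovered reads relative to depth the ratio of arsenite to untreated was 0.696 for C/D (95% exact interval 0.658 to 0.736) and 0.835 for H/ACA (0.786 to 0.887). These intervals and those below cover counting error only, since copies made by PCR cannot be told from separate molecules. Leaving out Snord96a, the ratio over all members was 0.763 (0.731 to 0.797), so it did not rest on the most abundant one. Snord104 held 177 and 179 of the 1462 and 1618 C/D reads in the untreated libraries. With arsenite it held 33 and 45 of 1059 and 1048. No ratio was computed without Snord104, so its part in the difference between the class ratios was not tested.

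The direction held under other scalings. With TMM-style factors 35 snoRNAs were lower (47.3%) and 5 higher (6.76%), against 40.2% and 28.0% of all genes. Over all genes the split of calls moved from 60.1% to 41.0% higher and the median from 0.08 to -0.07. Relative to the median of all genes, the snoRNA median was -0.40 as deposited, -0.39 with TMM-style factors and -0.43 after quantile normalisation. With the variance trend over value times length, 22 were lower (29.7%) and 5 higher (6.76%), all among the 40 above. That fit called 27.4% of all genes lower and 41.7% higher. The share of snoRNAs lower was thus close to that of all genes, while the share higher stayed far below it. The 6 ES cell markers fell in sum from between 2997 and 3020 RPKM to between 1191 and 1260, and the 5 trophectoderm markers rose in sum from 29.2 to 29.3 RPKM to 87.3 to 88.9. The 5 primitive endoderm markers went from between 7.68 and 7.74 RPKM to between 14.0 and 15.2 in sum, and the 5 fibroblast markers from 6.29 to 6.44 RPKM to 4.97 to 6.35. The part of these shifts in the snoRNA result was not tested, and in bulk RNA fewer cells of a type and less RNA per cell cannot be told apart.

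Snord104, a C/D snoRNA in no annotated host, fell most. It read 50.0 and 51.3 RPKM in untreated cells and 9.66 and 12.9 with arsenite, and the groups were far apart. The difference was -2.09 ± 0.11 (SE of the fit; limma adjusted p = 3.85e-06) on the log2(RPKM + 1) scale, and 356 reads fell to 78, a ratio of 0.223 (0.172 to 0.286).

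Snord1c, in the non-coding host 1810032O08Rik, read 1.85 and 4.29 RPKM and then 0.274 and 0. It entered the test through the untreated libraries alone, so no p is given, and rested on 23 reads against 1, a ratio of 0.0443 (0.00107 to 0.273), and 93.6% of its 30-base words also occur in Gm24253. Snord68, in an intron of the ribosomal protein gene Rpl13, fell without overlap from 6.87 and 8.28 RPKM to 3.12 and 2.61 (-1.15 ± 0.11, limma adjusted p = 7.00e-05). Snora33, the largest fall among H/ACA snoRNAs, lies in Rps12 and went from 4.32 and 6.17 RPKM to 1.63 and 2.19 (-1.09 ± 0.16, limma adjusted p = 0.000576).

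Other large falls rested on few reads or on 1 library. Snord93 read 5.49 and 8.83 RPKM and then 4.75 and 0.464, and its difference of -1.46 (limma adjusted p = 0.0437) became -0.47 without the second arsenite library and -1.16 without the second untreated library, and in both cases was no longer called. Snord111 read 2.58 and 1.63 RPKM and then 0 and 0.652, again with only untreated libraries past the filter, from 13 reads against 2, a ratio of 0.157 (0.0172 to 0.692).

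The most abundant members fell by less. Snord96a went from 83.5 and 88.0 RPKM to 56.6 and 64.2 (-0.50 ± 0.06, limma adjusted p = 0.000267), and Snora65 from 51.0 and 57.4 RPKM to 49.6 and 41.9 (-0.24 ± 0.08, limma adjusted p = 0.0359). Neither overlapped between groups, although the lower untreated and the higher treated library were close for Snora65. Snord52 fell from 20.3 and 20.6 RPKM to 16.7 and 16.3 (-0.29, limma adjusted p = 0.00129). Of all 32 snoRNAs called lower, 22 had a counting interval below 1, and so did 1 of the 34 that were not called.

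The 8 that rose were led by Snora2b, an H/ACA snoRNA, with 2.21 and 1.68 RPKM in untreated cells and 5.15 and 7.27 with arsenite (1.28 ± 0.15, limma adjusted p = 0.000217). Its reads went from 21 to 66, a ratio of 3.20 (1.93 to 5.50), and its host Kansl2 differed by 0.12 (limma adjusted p = 0.0518). Snord91a, in the ribosome maturation gene Tsr1, read 2.06 and 0.697 RPKM and then 5.34 and 3.13 (1.17 ± 0.29, limma adjusted p = 0.00814). In both cases the lowest treated library was above the highest untreated one.

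Snord88a read 0.858 and 0.581 RPKM and then 2.97 and 2.32, on 5 reads against 18. Its neighbour Snord88c, shown beside it above, read 2.45 and 5.23 RPKM and then 5.60 and 6.96 (0.64 ± 0.24, limma adjusted p = 0.0468). Snord70, in Nop58, read 0.777 and 0.394 RPKM and then 2.42 and 1.97, on 3 reads against 11, a ratio of 3.73 (0.986 to 20.8). These are low levels, and Snord88a and Snord70 entered the test through the arsenite libraries alone, so no p is given for them. The other rises were Snord34 (0.62), Snora31 (0.40) and Snora28 (0.38).

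Several rises depended on a setting or on 1 library. Snora28, Snora31 and Snord88c were no longer called under TMM-style scaling, under quantile normalisation or with the variance trend over value times length, and Snord34 was not called under quantile normalisation. Without the first untreated library (where Snord88c read 2.45 RPKM) Snord88c differed by 0.22 and Snora28 by 0.28, and without the second Snora31 differed by 0.15, and none of these was called. Without the second arsenite library the calls of Snora28 (0.20), Snord34 (0.54) and Snord88c (0.51) were lost, and without the first those of Snora31 (0.30) and Snord88c (0.78). Snora2b remained called under each alternative. Of the 8 rises, 6 had a counting interval above 1.

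**Figure D3:**
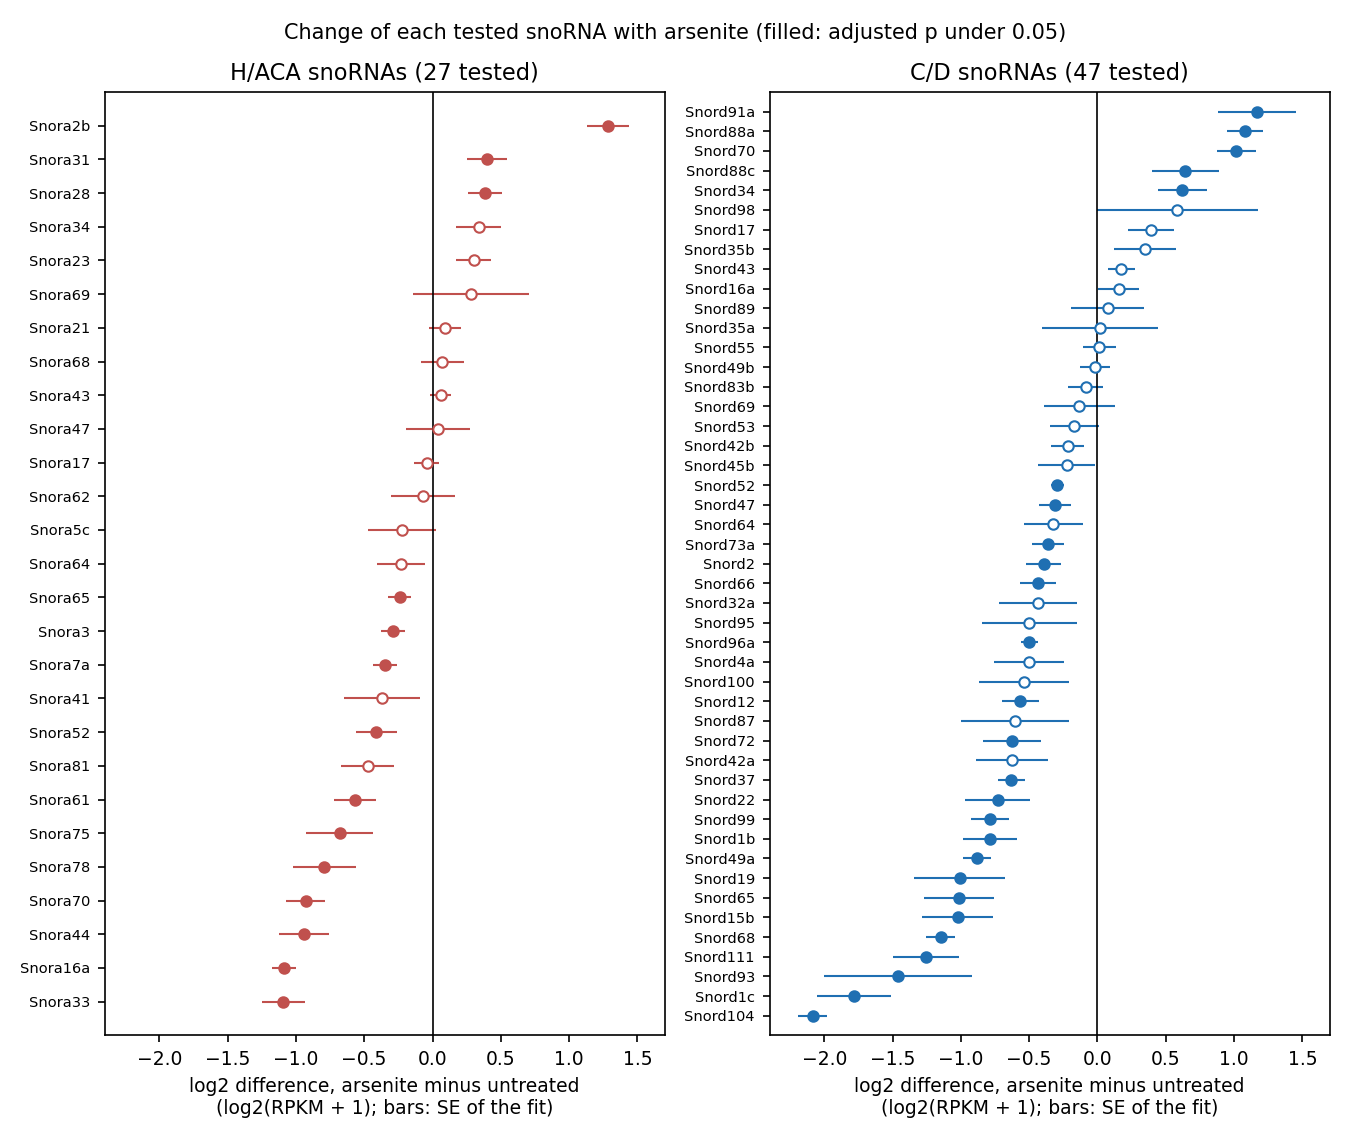
Log2 difference between arsenite and untreated cells on the log2(RPKM + 1) scale (x) for each tested snoRNA (y), H/ACA at left and C/D at right, in order of size; bars are the SE of the fit and filled points have an adjusted p under 0.05. Filled points lie mostly left of 0, from Snord104 at -2.09 to Snora2b at 1.28.

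Most hosts fell as well. Of 71 tested genes annotated as hosts of members, 54 were lower and 4 higher with arsenite (median -0.38), against 27.0% and 40.7% of all genes. With TMM-style factors 60 hosts were lower and 1 higher, against 40.2% and 28.0% of all genes. After quantile normalisation 41 were lower and 9 higher, against 32.8% and 31.6%. Of the 38 called snoRNAs whose host was tested, 26 had a host called in the same direction and 8 a host called in the other. Most hosts and most called snoRNAs were lower, so many would share a direction without any link, and no rate for this was computed. The sign was the same for 28 of the 38, and for 49 of all 68 members with a tested host. Across the 68 members with a tested host, in 51 hosts, the differences of snoRNA and host had a Pearson coefficient of 0.31 and a Spearman coefficient of 0.31, as a description.

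Members of 1 host show both patterns. Snhg12 went from 62.9 and 64.3 RPKM to 17.7 and 17.7 (-1.79, limma adjusted p = 1.8e-07), and its 4 members all fell: Snora16a from 7.73 and 8.76 RPKM to 3.46 and 3.22 (-1.09), Snora44 from 2.99 and 1.97 to 0.548 and 1.07 (-0.94), Snord99 from 15.1 and 21.3 to 9.54 and 10.4 (-0.79) and Snora61 from 23.3 and 19.9 to 11.7 and 17.2 (-0.57). Each of these 4 lies in an exon of some transcript of Snhg12, and each fell by less than the host. In 2410006H16Rik, a non-coding host that went from 457 and 510 RPKM to 152 and 150 (-1.67), members in introns behaved unlike each other. Snord65 fell from 5.06 and 9.17 RPKM to 3.75 and 2.20 (-1.01) and Snord49a from 20.6 and 22.9 to 12.8 and 10.1 (-0.88), while Snord49b read 5.89 and 5.64 and then 6.45 and 4.97 (-0.02, limma adjusted p = 0.880), with overlapping groups.

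The 8 members that went against their host were of both kinds. Snord88a, Snord88c, Snord91a, Snord70, Snord34 and Snora28 were higher while their hosts were lower: 2410002F23Rik by -0.37, Tsr1 by -0.59, Nop58 by -0.49, Rpl13a by -0.49 and Eif5 by -0.27. Snord111 was lower while its host Sf3b3, a splicing factor gene, was higher (0.25), and Snord37 lower (-0.63) while its host Eef2, an elongation factor gene, was higher (0.25), though neither host was called higher with TMM-style factors. Snord88a and Snord70 entered the test through the arsenite libraries alone, and Snord111 through the untreated libraries alone, so these had to differ. The calls of Snord88c and Snora28 were lost under both other scalings, and that of Snord34 after quantile normalisation. The difference between a snoRNA and its host was not tested in itself.

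**Figure D4:**
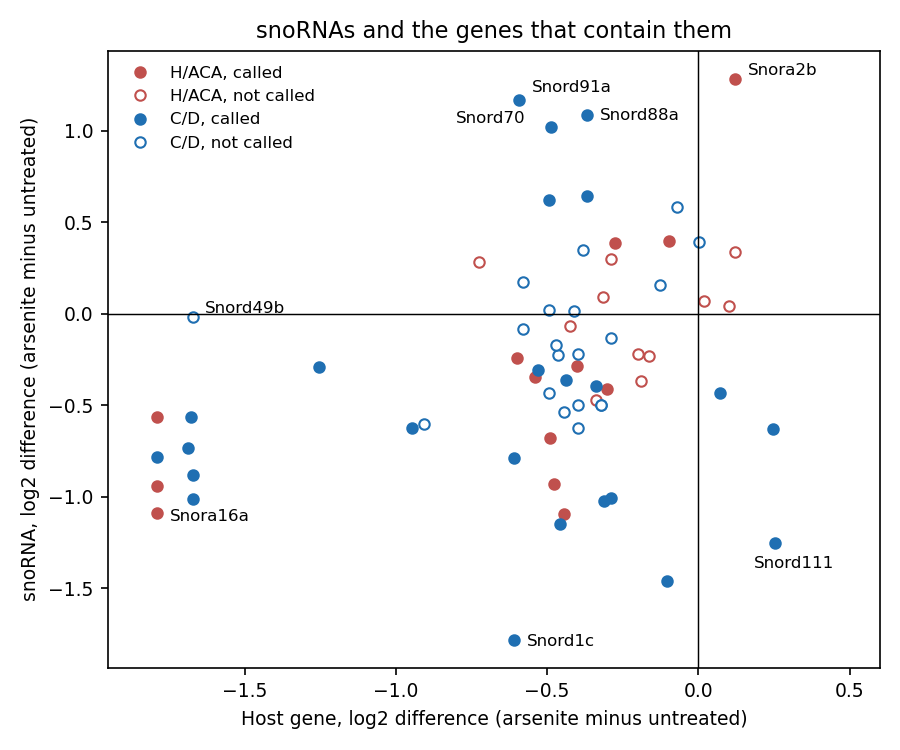
Log2 difference with arsenite of each snoRNA (y) against that of the gene that contains it (x), both on the log2(RPKM + 1) scale; red is H/ACA, blue is C/D, and filled points are snoRNAs called at an adjusted p under 0.05. Of 68 points, 49 have the same sign on both axes. Snora16a and the other members of Snhg12 lie at the far left (-1.79). Snord91a, Snord88a and Snord70 lie above 1 with a host below 0. Of these, Snord88a and Snord70 entered the test through the arsenite libraries alone.

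Most transcripts of the core proteins of snoRNA particles fell, under each of the 3 scalings. Over all genes 27.0% were lower and 40.7% higher as deposited, 40.2% and 28.0% with TMM-style factors, and 32.8% and 31.6% after quantile normalisation. Of the 4 H/ACA core proteins 3 were lower: dyskerin (Dkc1), the pseudouridine synthase, from 115 and 111 RPKM to 69.4 and 65.6 (-0.74), Gar1 (-0.84) and Nop10 (-0.66), while Nhp2 differed by 0.10 (limma adjusted p = 0.0546) and was called higher only after quantile normalisation. All 4 C/D core proteins were lower: fibrillarin (Fbl), the methyltransferase, from 293 and 280 RPKM to 191 and 192 (-0.58), Nop58 (-0.49), Nop56 (-0.40) and Nhp2l1 (Snu13; -0.60). Of 15 assembly and processing factors, 5 were lower, among them the H/ACA chaperone Shq1 (-0.36) and the nucleolar factor Tcof1 (-0.60), and 4 higher, among them the assembly factor Nufip1 (0.18), the debranching enzyme Dbr1 (0.13) and the exosome nuclease Exosc10 (0.14). These rises depend on the scaling: with TMM-style factors 0 of the 15 were higher and 8 lower, and after quantile normalisation 3 were higher and 5 lower. Of 16 tested non-coding host RNAs 14 fell, from Snhg12 and Snhg1 (-1.69) to Snhg14 (-0.40), and Snhg11 rose (0.59), with the same counts under both other scalings. The Scarna genes, whose RNAs guide modification of spliceosomal RNAs in Cajal bodies, had 2 tested members and both were higher: Scarna2 (0.73) and Scarna9 (0.78), though neither after quantile normalisation.

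With activin A, 7 of 85 snoRNAs were higher in the Trim33 knockout than in wild type and 0 were lower by limma, against 6.61% of all genes higher and 2.82% lower. At an unadjusted p under 0.05 limma counted 24 of the 85 snoRNAs and 3096 of the 11914 genes. The 7 are 8.24% of those tested, close to the share of all genes. They were 2 H/ACA (Snora7a and Snora64) and 5 C/D snoRNAs (Snord42b, Snord15a, Snord49b, Snord53 and Snord96a). Over all tested members the median difference was 0.25 for H/ACA and 0.47 for C/D, against 0.01 for all genes. Their difference of -0.23 was within the SD of the class difference between replicates (0.33). With TMM-style factors 5 were higher and 0 lower, against 5.55% and 4.05% of all genes. Over all genes the split of calls moved from 70.1% to 57.8% higher. With the variance trend over value times length 4 were called, all higher (4.71%), against 6.47% of all genes higher. A fit of the 2 activin A groups alone called 18 of 79 higher and 3 lower, against 10.5% and 5.66% of all genes.

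Between the libraries labelled knockout and wild type with SB431542, 1 of 85 snoRNAs was higher and 6 were lower, against 3.01% and 6.55% of all genes. The 7 were again 8.24% of those tested. Snora20 was higher, and Snord68, Snord42b, Snord45b, Snora68, Snord49b and Snora7a were lower. The medians were -0.02 for H/ACA and -0.41 for C/D, against -0.01 for all genes, and the classes differed by 0.39, with an SD between replicates of 0.33. With TMM-style factors 1 was higher and 4 lower, against 3.81% and 5.56% of all genes. After quantile normalisation it was 2 and 3, against 3.90% and 5.46%. The variance trend over value times length called 2, both lower (2.35%), against 6.39% of all genes lower. A fit of the 2 SB431542 groups alone called 2 of 80 higher and 11 lower, against 1.40% and 3.91% of all genes. Of the 7, Snora68 (-1.37, limma adjusted p = 0.0485) was lost under 7 of 9 alternatives, among them both other scalings and the replicate block, and in 5 of 8 fits with 1 library left out.

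Summed levels moved in the same way. C/D snoRNAs had 796 and 869 RPKM in wild type with activin A, 1158 and 1377 in knockout with activin A, 1113 and 1036 in the SB431542 pair labelled wild type, and 886 and 661 in the SB431542 pair labelled knockout. The knockout libraries with activin A and the SB431542 libraries labelled wild type were all above the 4 others. For H/ACA the same libraries had 358 and 297, 365 and 458, 336 and 301, and 356 and 261 RPKM, and they overlapped. In recovered reads relative to depth the knockout to wild type ratio with activin A was 1.52 for C/D (1.46 to 1.58) and 1.25 for H/ACA (1.19 to 1.32), and with SB431542, by label, 0.728 (0.698 to 0.759) and 0.967 (0.915 to 1.02). The intervals do not hold the spread between replicates, which was several times the counting noise here.

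Snord42b, whose sequence is given above, was called with both agents. It read 32.9 and 45.4 RPKM in wild type with activin A, 103 and 116 in knockout with activin A, 104 and 117 in the SB431542 pair labelled wild type, and 31.9 and 42.8 in the SB431542 pair labelled knockout. The middle 2 groups were above 100 RPKM and the first and the last below 46. With activin A the difference was 1.48 ± 0.19 (limma adjusted p = 0.00336; 138 against 443 reads, ratio 2.82, 2.32 to 3.44), and with SB431542, by label, -1.55 ± 0.19 (limma adjusted p = 0.00259; ratio 0.341, 0.279 to 0.415). Both were called under every alternative and without any 1 library. Its host Rpl23a differed by 0.37 (limma adjusted p = 0.244) and -0.35 (limma adjusted p = 0.265), and of the 2 other members in Rpl23a, Snord4a differed by 0.73 and 0.08 and Snord42a by 0.35 and -0.64, none of them called.

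Snora7a, in the ribosomal protein gene Rpl32, was the H/ACA snoRNA called with both agents. It read 26.2 and 20.1 RPKM in wild type with activin A, 37.1 and 43.3 in knockout with activin A, 29.4 and 34.2 in the SB431542 pair labelled wild type, and 19.2 and 18.9 in the SB431542 pair labelled knockout. The groups did not overlap with either agent, by 0.78 ± 0.16 (limma adjusted p = 0.0189) and -0.71 ± 0.16 (limma adjusted p = 0.0263). Leaving out the second wild-type or either knockout library with activin A ended the first call, with differences of 0.60, 0.89 and 0.67. The second was lost without a filter, with the variance trend over value times length and without any of the 4 SB431542 libraries (-0.81 to -0.60).

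Snord49b read 14.3 and 8.14 RPKM, 22.0 and 29.2, 15.3 and 22.3, and 9.43 and 7.57 in the same order of groups. It was also called with both agents, by 1.15 (limma adjusted p = 0.0337) and -1.04 (limma adjusted p = 0.0466), but with neither under the variance trend over value times length, and the first call was lost without the second wild-type library (0.78) or either knockout library (1.35 and 0.95). The second call was lost under 6 of 9 alternatives, the replicate block and both other scalings among them, and in 6 of 8 fits with 1 library left out. Snord96a, the most abundant, read 212 and 195 RPKM, 324 and 384, 277 and 241, and 238 and 153. With activin A its groups were apart by 0.79 ± 0.20 (limma adjusted p = 0.0423), and with SB431542 by -0.43 (limma adjusted p = 0.214). The first call was lost with TMM-style factors (0.73) and without any of the 4 activin A libraries (0.67 to 0.91).

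Of the remaining calls, Snora64, in Rps2, read 7.21 and 7.12 RPKM in wild type with activin A and 16.3 and 14.6 in knockout (1.01, limma adjusted p = 0.0467), and Snord53, in Wdr43, read 3.07 and 5.04 RPKM and then 9.87 and 10.1 (1.14, limma adjusted p = 0.0211). Their groups did not overlap. The Snora64 call was lost with TMM-style factors, after quantile normalisation, without a filter and with the variance trend over value times length, and in 6 of 8 fits with 1 library left out; that of Snord53 was lost without a filter and in 3 of 8 such fits. Snord45b, in Rabggtb, read 25.9 and 12.1 RPKM in the SB431542 pair labelled wild type and 5.56 and 5.30 in the pair labelled knockout (-1.55, limma adjusted p = 0.0411). Without the first of these libraries it differed by -1.03, and the call was lost in 5 of 8 fits with 1 library left out and with a replicate block.

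Low members added calls on few reads. Of the 85 snoRNAs, 8 with activin A and 11 with SB431542 reached 1 RPKM in only 1 of the 2 groups compared. Snord15a, Snord68 and Snora20 below are the called ones among them. Each of these also reached 1 RPKM in other groups of this table. Snord15a, in an intron of Rps3, read 0.204 and 0 RPKM in wild type with activin A and 1.95 and 3.15 in knockout (1.67, limma adjusted p = 0.0199), from 1 read against 28, a ratio of 24.6 (4.06 to 1005), and the call was lost without any of the 4 activin A libraries (1.43 to 1.92). Snord68 read 4.75 and 5.37 RPKM in the SB431542 pair labelled wild type and 0.652 and 0 in those labelled knockout (-2.24, limma adjusted p = 0.0191), from 18 reads against 1, a ratio of 0.0631 (0.00151 to 0.399). That call was lost without either library labelled wild type (-2.31 and -2.16) or the second labelled knockout (-1.87). Snora20, the rise with SB431542, rested on 2 reads against 11 (1.44, limma adjusted p = 0.0342) and was lost in 4 of 8 fits with 1 library left out, down to 1.00. In 4 more cases a snoRNA was at 0 in both libraries of 1 group and at least 1 RPKM in both of another: Snord23 and Snord111 at 0 in the SB431542 pair labelled knockout, Snord110 in wild type with activin A and Snord98 in knockout with activin A. Their highest library was 6.70 RPKM.

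Averaged over both genotype labels, so that exchanging the labels within an agent would not alter it, 0 of 85 snoRNAs differed between activin A and SB431542, against 0.109% of all genes higher and 0% lower (13 of 11914). At an unadjusted p under 0.05 limma counted 9 snoRNAs and 361 genes. The median was 0.19 for H/ACA and 0.17 for C/D, against -0.01 for all genes.

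The genotype difference itself differed between the 2 agents for 20 of 85 snoRNAs, 18 higher and 2 lower in the contrast of activin A minus SB431542, against 16.1% of all genes higher and 10.1% lower. The 20 are 23.5% of those tested and the calls over all genes 26.3%, so the number was not above the background. All of it rests on the SB431542 genotype labels that Trim33 contradicts. With those labels exchanged, an alternative added after seeing the data, limma called 0 of 85 snoRNAs and 0% of all genes, with 7 snoRNAs and 76 of 11914 genes at an unadjusted p under 0.05, and Snord42b differed by -0.08. The values below are by the labels as given. Of the 54 C/D snoRNAs 12 were higher and 0 lower, and of the 31 H/ACA snoRNAs 6 were higher and 2 lower. The medians were 0.75 for C/D and 0.10 for H/ACA, against 0.03 for all genes. Under TMM-style scaling 16 were higher and 2 lower, against 13.9% and 13.3% of all genes. The split over all genes moved from 61.5% to 51.0% higher.

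Snord42b had the difference with the smallest adjusted p (3.03 ± 0.26, limma adjusted p = 0.000181). Snora70, in Rpl10, went the other way from most. It read 26.9 and 19.4 RPKM in wild type with activin A, 13 and 16 in knockout with activin A, 13.1 and 12.9 in the SB431542 pair labelled wild type, and 24.7 and 16.4 in the SB431542 pair labelled knockout (-1.22 ± 0.31, limma adjusted p = 0.02). The lowest library of the first and last groups, at 16.4 RPKM, was just above the highest of the middle 2, at 16. The host Rpl10 went with it (-0.96, limma adjusted p = 0.0179). Without the first wild-type library with activin A the call was lost (-1.0), and likewise without the first knockout library (-1.08).

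Snora68 read 6.76 and 8.50 RPKM, 16.5 and 26.1, 13.9 and 18.4, and 8.94 and 3.34 in the same order (2.72 ± 0.51, limma adjusted p = 0.00594). Snord104 read 35.1 and 66.3 RPKM, 54.1 and 84.3, 64.5 and 89.5, and 32.6 and 45.7 (1.44, limma adjusted p = 0.0474), with overlap between genotypes with activin A. Of the 18 called snoRNAs with a tested host, 14 had the same sign as the host, against 63 of 78 over all members. Among the 18, the host was called in the same direction for 6, such as Snora70, Snora7a and Snord68. It was called in the other for Snora62, whose host Rpsa was lower (-0.82). Of the 8 core proteins of both particles limma called 0 in any Trim33 comparison, with 1 at an unadjusted p under 0.05 in the difference between agents (Dkc1, which was called lower there with TMM-style factors). Among 15 assembly factors Nolc1 (-0.48) and Ruvbl1 (-0.54) were lower in that difference. Among 17 non-coding hosts Snhg6 (1.19), Snhg11 (1.11) and Snhg3 (0.85) were higher, Snhg11 alone with TMM-style factors. Over all genes 16.1% were higher and 10.1% lower in it, so these numbers were near the background.

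**Figure D5:**
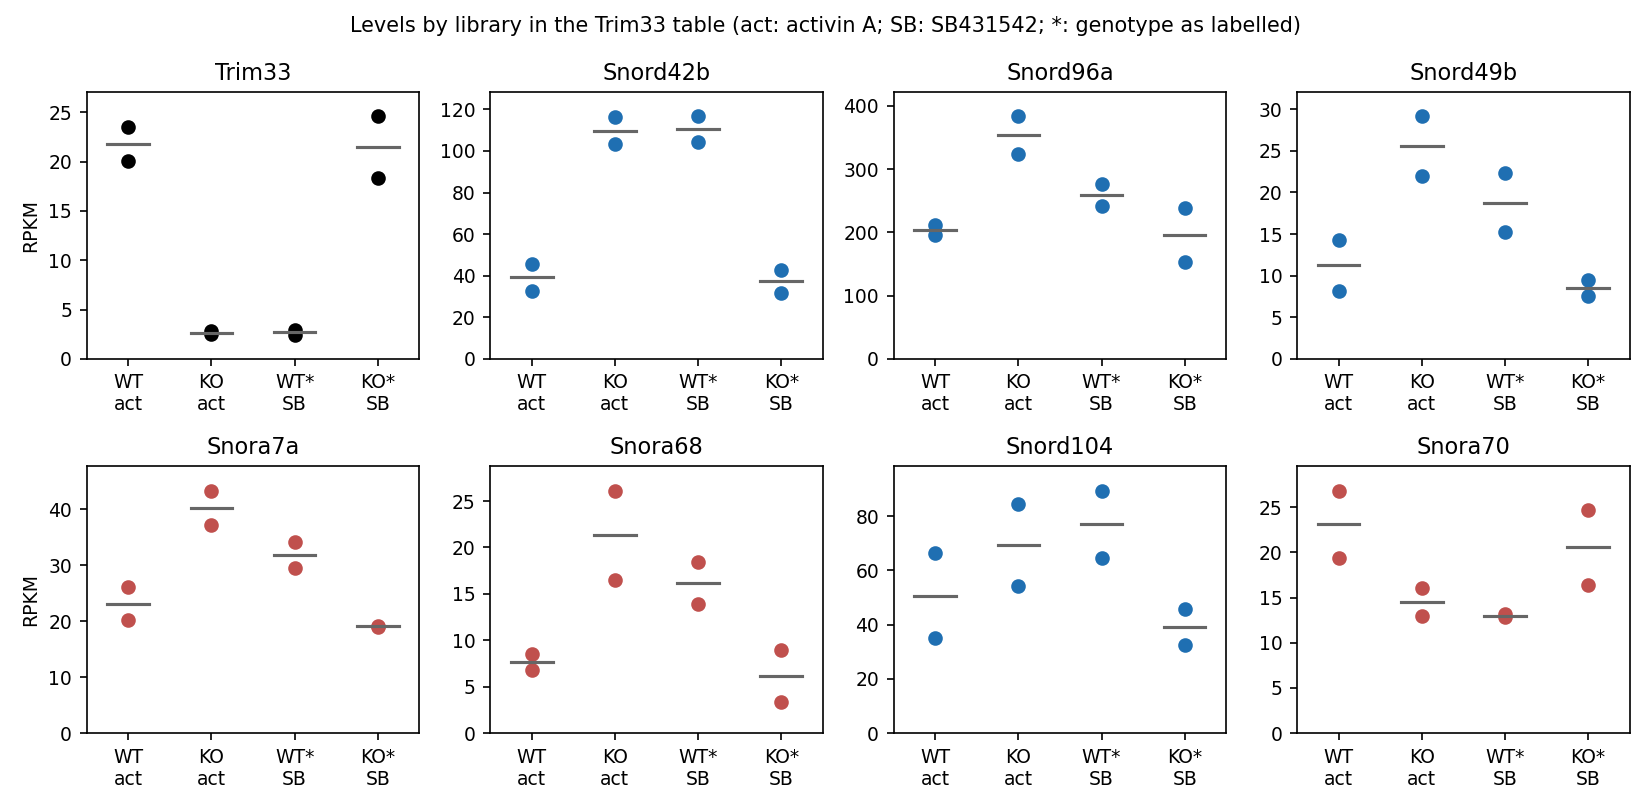
RPKM by library (points; bars are means of 2) on axes from 0 for Trim33 and 7 snoRNAs in the 4 groups of the Trim33 table; blue is C/D, red is H/ACA, and an asterisk marks groups whose genotype label Trim33 contradicts. Snord42b is above 100 RPKM in the middle 2 groups, where Trim33 is below 3 RPKM, and below 46 in the outer 2, while Snora70 is lower in the middle 2.

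Fibroblast markers also varied over these libraries. The 5 markers summed to 6.09 to 6.40 RPKM in wild type with activin A, 13.9 to 42.4 in knockout with activin A, 10.7 to 35.9 in the SB431542 pair labelled wild type, and 5.79 to 6.66 in the SB431542 pair labelled knockout. The 6 ES cell markers summed to between 1758 and 2159 RPKM in every group. The part of other cells or of another difference between the lines in the snoRNA values was not tested.

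The Pml table held almost no snoRNA signal. Of 110 snoRNAs 103 were listed at 0 in all 4 libraries, and 7 had a value above 0 in at least 1. No gene of at most 100 bases was above 0 there (0 of 1024), against 28.9% of 1044 in the arsenite table and 26.1% in the Trim33 table. Between 100 and 200 bases it was 2.95%, against 36.4% and 32.7%. A 0 in this table therefore says little about a snoRNA, and what made these values 0 was not tested.

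Of the 3 snoRNAs tested, 1 was called lower in the Pml knockout, against 18.9% of all genes lower and 16.6% higher. That was Snora16a, which read 277 and 416 FPKM in wild type and was listed at 0 in both knockout libraries. It entered the test through the wild-type libraries alone and so had to differ, and neither a p nor a fold is given. Its host Snhg12 differed by -0.0040 (limma adjusted p = 0.965). Snora81, in the translation factor gene Eif4a2, read 142 and 56.6 FPKM without and 55.8 and 133 with the knockout (-0.06, limma adjusted p = 0.935), and Snord17 read 21.6 and 6.58 and then 0 and 15.3 (-1.69, limma adjusted p = 0.249). Their groups overlapped.

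Values in this table could be large in 1 library and 0 in its replicate. Snora65 was at 761 FPKM in the second knockout library and Snord22 at 407 in the first, and each was at 0 in the other 3. Pml itself went from 49.8 and 45.1 FPKM to 32.0 and 33.5 (-0.52, limma adjusted p = 0.000489). Of the core proteins limma called 0 of 8, with 0 at an unadjusted p under 0.05. Of 15 assembly factors 3 were lower: Naf1 (-0.49), an H/ACA assembly factor, Tcof1 (-0.45) and Ruvbl2 (-0.16). Over all genes 18.9% were lower and 16.6% higher, so this number was near the background. Of 16 tested non-coding hosts, Snhg14 was higher (0.59). The 5 trophectoderm markers summed to 29.5 to 31.7 FPKM in wild type and 609 to 627 in knockout, and their part in these values was not tested.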

How the data were processed

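RNA-seq values of 110 snoRNA genes in 16 libraries were used. The authors deposited 3 tables of normalised values: FPKM for the Pml libraries and RPKM for the arsenite libraries, per the file headers and names, and for the Trim33 libraries a table with no stated unit, taken as deposited RPKM because values times gene length fall on whole multiples of 1 read. The tools listed, with no roles, per the submitters' processing notes, are featureCounts 2.0.1, Bowtie2 2.3.3, DESeq2, FastQC 0.11.5 and SAMtools 1.9, with the build mm10. How strand entered the counting is not stated in the labels or headers, so reads of a snoRNA and of an overlapping transcript cannot be told apart. Library kit and culture are per the labels' protocols. Columns were matched to samples by name; the 2 untreated columns could be matched to their group only. No column of another sample held values.

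Names that a spreadsheet had turned into dates (27 per table) were left out, and a gene was tested where 2 or more libraries of its table reached 1 (11648, 12136 and 11914 genes). Differences were fitted on log2(value + 1), which understates the change of low genes, with limma 3.58.1 in R 4.3.3 (lmFit, eBayes with trend, two-sided), over all genes of a table, with Benjamini-Hochberg adjustment over all of them and a call at an adjusted p under 0.05. The Trim33 table was fitted as 4 group means. The fit was tested on simulated data.

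Depth and reads per snoRNA in the RPKM tables were recovered from the spacing of low values: under 20 reads, 89.2% to 97.4% of snoRNA values were whole within 0.1 reads. They were used for 95% exact intervals of read ratios and for the chi-square of replicates, not for a count test. Replicate pairs differed by more than sampling noise, so each library counted as 1 replicate. Whether replicate numbers pair the libraries was checked from the correlation of their deviations, which was 0.02 in the Pml table. In the Trim33 table it was 0.60 between knockout with activin A and the SB431542 pair labelled wild type. Between wild type with activin A and the SB431542 pair labelled knockout it was 0.37, and elsewhere from -0.14 to 0.21. Some same-numbered libraries of that table thus shared deviations. The main fits do not use pairs, and a fit with a replicate block is given as an alternative.

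Annotation and sequences came from GENCODE and RefSeq for GRCm38, the assembly of mm10 (pandas 2.3.3, scipy 1.17.1, matplotlib 3.10.9 and numpy 2.4.6 under Python 3.11.15). Named members are, per table, the 5 of each class with the highest mean, per comparison up to 8 called rises and 8 called falls, and members at 0 in both libraries of a group; other members are named where they share a host with these or overlap another gene, chosen after their values were seen. The host of 1 named snoRNA is not reported here. The members, lists of core proteins, assembly factors, host RNAs and markers, and the alternatives were chosen with earlier results of these data known. Alternatives were other pseudocounts, filters and scalings, a replicate block, a fit over the groups compared, each library left out and, chosen after seeing the data, the variance trend over value times gene length, a block by column number in the arsenite table and exchanged SB431542 genotype labels.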

Additional observations from a re-analysis of the deposited data

Results flagged for a closer look

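The difference between genotype labels itself differed between activin A and SB431542 for 20 snoRNAs (limma, adjusted p under 0.05). These 20 were 23.5% of the snoRNAs tested, against 26.3% of all genes, so their number was not above the background. As log2 differences of the activin A contrast minus the SB431542 contrast they were 3.13 for Snord110, 3.04 for Snord68, 3.03 for Snord42b, 2.85 for Snora17, 2.72 for Snora68, 2.68 for Snord45b, 2.60 for Snord15a and 2.19 for Snord49b. They were 1.77 for Snora62, 1.53 for Snord58b, 1.52 for Snord35b, 1.49 for Snora7a, 1.44 for Snord104, 1.36 for Snora64, 1.34 for Snord49a, 1.31 for Snora15, 1.31 for Snord53 and 1.22 for Snord96a. Snora70 (-1.22) and Snora2b (-2.58) had the opposite sign. Trim33 contradicts the genotype labels of all SB431542 libraries, and the whole list rests on those labels: with them exchanged 0 of the 85 snoRNAs were called by limma (7 at an unadjusted p under 0.05), and Snord110 differed by -0.83, Snord68 by -1.43, Snord42b by -0.0759 and Snora2b by -0.999. Snora68, Snord15a, Snord42b, Snord45b, Snord49b and Snord68 were, by the labels as given, called without any 1 library, whereas Snora17 and Snora2b were each lost in 5 of 8 such fits and Snord110 in 4.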

How the results depend on the processing

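Exchanging the genotype labels of the SB431542 libraries, added after seeing the data, left 0 snoRNAs called for the difference between agents and turned the sign of Snord110 (-0.83), Snord68 (-1.43), Snord42b (-0.0759), Snora17 (-0.0346), Snora68 (-0.0326) and Snord45b (-0.41). No called result named here reversed its direction under the other alternatives run. Without a filter fewer snoRNAs were called: 19 with arsenite (5 higher, 14 lower), 2 between genotypes with activin A, 1 with SB431542 and 12 for the difference. A filter of at least 5 gave 4 with SB431542. Other filters change which snoRNAs and genes are tested, so these counts cannot be set directly beside the main ones. Shares over all genes are not given for them or for the fits with a library left out. The variance trend over value times length gave 27, 4, 2 and 16, all among the calls reported. Of the 16, 14 were higher and 2 lower, against 16.1% and 10.4% of all genes. Fitting only the 2 groups compared gave 21 with activin A and 13 with SB431542, instead of 7 each, with all-gene shares as given above. Leaving out each library in turn gave 32 to 45 with arsenite, 2 to 14 with activin A, 2 to 9 with SB431542, 0 to 1 for the averaged agents, 15 to 26 for the difference and 0 to 3 in the Pml table. With activin A the count was 2 without the first knockout library, 3 without the second, 4 without either wild-type library and 14 without either library labelled knockout with SB431542. With SB431542 it was 2 and 3 without the first and second library labelled wild type, and 3 without the second labelled knockout. In the Pml table it was 0 without either wild-type library, where Snora16a fails the filter, and 2 and 3 without the first and second knockout library.

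The H/ACA minus C/D difference of medians ranged, over the libraries left out, from -0.0069 (without the second untreated library) to 0.30 with arsenite (0.16 in full), from -0.23 to 0.01 with activin A, from 0.10 to 0.60 with SB431542, from -0.01 to 0.20 for the averaged agents and from -4.25 to 1.77 in the Pml table (-2.54 in full, 3 snoRNAs); the causes were not tested. With a replicate block 8, 8, 0 and 22 snoRNAs were called in the 4 Trim33 comparisons in this order, and 1 in the Pml table; it ended the SB431542 calls of Snora68, Snord45b and Snord49b. The untreated columns of the arsenite table carry numbers but cannot be matched to single samples. A replicate block by column number, added after seeing the data, called 42. Of these 9 were higher and 33 lower, against 40.5% and 26.9% of all genes. Deviations of same-numbered libraries in that table had a correlation of -0.04. With 8 to 18 reads behind the median member, counting intervals of low snoRNAs are wide, such as 4.06 to 1005 for the ratio of Snord15a with activin A.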

Other observations

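Other short RNAs were measured in the same libraries. Rpph1, the RNA of ribonuclease P, read 2.97 and 4.04 RPKM in wild type with activin A, 12.9 and 38.0 in knockout with activin A, 12.7 and 16.7 in the SB431542 pair labelled wild type, and 3.56 and 7.15 in the SB431542 pair labelled knockout. It differed by 2.38 between genotypes with activin A (limma adjusted p = 0.0157), and the middle 2 groups were above the first and the last without overlap. Rmrp, the related RNA of ribonuclease MRP, read 1.53 and 0.93 RPKM, 4.30 and 5.64, 1.47 and 7.08, and 2.05 and 1.63 in the same order (1.42, limma adjusted p = 0.0830). Rnu73b, a small RNA gene whose symbol is outside the rule used here for snoRNAs, went the other way. It read 8.91 and 9.03 RPKM, 2.44 and 2.19, 0 and 0.403, and 7.05 and 5.88 (-1.59, limma adjusted p = 0.00319). Whether Rnu73b belongs to a snoRNA class was not checked, and it is in none of the snoRNA counts. With arsenite Rpph1 fell by 0.71 (limma adjusted p = 0.00364) and Rmrp by 1.22 (limma adjusted p = 0.00309) on the log2 scale.

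Of the genes named as microRNAs, which are of like length and often lie in host genes too, 68 were tested with arsenite. In that list 21 were lower and 9 higher, against 27.0% and 40.7% of all genes, with a median of -0.18, against a median of -0.32 over the 74 snoRNAs and 0.08 over all genes. With the Trim33 labels 71 were tested and the difference of the genotype effect was called for 5 higher and 4 lower, with a median of 0.08, against 16.1% and 10.1% of all genes.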
